A study of Mus musculus with 12 samples.

Results

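Neuregulins are growth factors of the epidermal growth factor (EGF) family, and the ErbB proteins are the receptor tyrosine kinases that bind them. The levels of 7 genes of this system were followed in bulk RNA-seq of the neonatal mouse cochlea: the ligand genes *Nrg1*, *Nrg2* and *Nrg3* and the receptor genes *Egfr*, *Erbb2*, *Erbb3* and *Erbb4*. They were taken by symbol from the 28686 gene symbols of the count table, and all 7 were found. The libraries came from 6 Sox2CreER/+Jag1fl/fl mice, called mutants, and 6 Sox2+/+ littermate controls, with 1 mouse per library. The labels give the strain as C57BL/6;129SV, whereas the study's methods name C57bl6/J for the CreER line and FVB/n for the floxed line. All pups received tamoxifen at P0 and P1, and cochlear tissue was collected at P6. Controls carried the floxed *Jag1* allele on 1 or both chromosomes but no CreER. CreER was made from the *Sox2* locus, which in the cochlea is active in supporting cells, and it replaced 1 *Sox2* allele, so that *Sox2* dosage also separates the genotypes. The study asked what the loss of the Notch ligand JAG1 from maturing supporting cells does to the cochlea. Neither sex nor litter is given for a single mouse.

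A neuregulin binds ErbB3 or ErbB4 through its EGF-like domain, and the receptor then pairs with another ErbB protein. ErbB2 has no known ligand of its own and acts as the shared partner, whereas ErbB3 has little kinase activity and passes the signal on through tyrosines that recruit phosphatidylinositol 3-kinase (PI3K). EGFR answers to EGF, TGF-alpha and their relatives and not to neuregulins. In peripheral nerve, NRG1 on the axon acts on ErbB2 and ErbB3 of Schwann cells and sets how thickly they wrap the axon. In the cochlea, spiral ganglion neurons are a source of neuregulin, and their Schwann cells as well as supporting cells carry ErbB receptors.

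The ligands *Nrg1* and *Nrg3* and the receptor *Erbb3* are the members whose levels differed most between the genotypes, and the sequences behind their roles are therefore shown. The EGF-like domain is the part of a neuregulin that touches the receptor, and 6 cysteines hold its fold together. Its coding sequence is given from the longest annotated coding transcript in GENCODE M21 on GRCm38, with the 6 cysteine codons in capitals. In *Nrg1* it lies on the minus strand of chromosome 8 (chr8:31837698-31849398), in exons 2 and 3 of 9, and the 120 bases are joined across an intron. In *Nrg3* it lies on the minus strand of chromosome 14 (chr14:38668261-39012054), in exons 2 and 3 of 10, with 117 bases.
Nrg1: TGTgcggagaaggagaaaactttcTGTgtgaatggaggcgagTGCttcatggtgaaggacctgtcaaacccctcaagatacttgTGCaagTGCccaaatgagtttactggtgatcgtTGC
Nrg3: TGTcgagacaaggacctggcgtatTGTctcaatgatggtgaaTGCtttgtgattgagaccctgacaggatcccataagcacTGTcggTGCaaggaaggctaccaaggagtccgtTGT

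The docking form for the p85 subunit of PI3K is Tyr-x-x-Met, a tyrosine followed after any pair of residues by a methionine. In-frame codons of this form were counted in the longest coding transcript of each receptor. There were 7 in *Erbb3*, 2 in *Erbb2*, 2 in *Erbb4* and 1 in *Egfr*. Of 343 annotated mouse coding sequences between 1210 and 1339 codons long, the lengths of the receptors, 47.5% held at least 1 and 1.17% held 7 or more. A match is a description of the letters and not a tested site. In each receptor 1 match lies in exon 23, in *Erbb3* that at codon 939, which is therefore not particular to *Erbb3*. The 7 of *Erbb3*, on the minus strand of chromosome 10, are shown with the tyrosine and methionine codons in capitals, each named by the codon number of its tyrosine. The one at codon 939 is in exon 23 of 28 (chr10:128571652-128571663), and the one at codon 1051 is in exon 26 (chr10:128570966-128570977). The other 5 are in exon 28, from chr10:128569797-128569808 for codon 1194 to chr10:128569521-128569532 for codon 1286.
Codon 939: TACatggtcATG
Codon 1051: TACatgcccATG
Codon 1194: TATgaatacATG
Codon 1219: TATgagtacATG
Codon 1257: TATgaatacATG
Codon 1273: TATgcagctATG
Codon 1286: TATgaggaaATG

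Between 28498549 and 36134983 reads per library were counted on genes. Within a genotype the libraries varied beyond counting error, with a chi-square per degree of freedom between 13.4 and 70.6 over 30 pairs. *Jag1* itself lay between 83.0 and 118 CPM in controls and between 24.2 and 42.9 CPM in mutants, with no overlap. CPM is the count of a gene scaled to a common library total, after a TMM factor per library that adjusts this total. The factor does not remove differences in cell content between libraries. Hair cell markers (16 of 16) and supporting cell markers (13 of 13) were all above the count filter used in the tests. Some mutant libraries stood apart from the rest. Mutants 1 and 2 had the highest mean level of Schwann cell markers, mutant 4 had the highest mean level of neuron markers, and in mutant 1 the 2586 genes with at least 8 kb of merged exons were low, with a median log2 deviation from the genotype mean of -0.27. In bulk tissue, fewer cells of a type and less RNA per cell cannot be told apart.

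The receptor genes *Erbb2*, *Erbb3* and *Egfr* were far more abundant than the neuregulin genes, whereas *Erbb4* was nearer to *Nrg2*. Levels were compared between genes per length, as RPKM, which is CPM per kilobase of merged exons in GENCODE M21. In controls, *Erbb2* was the highest at 17.5 ± 1.01 RPKM (SD, n = 6). *Erbb3* followed at 14.2 ± 1.53 RPKM (SD, n = 6), and the ranges of these neighbours overlapped. *Egfr* stood at 8.6 ± 1.13 and *Erbb4* at 1.7 ± 0.4 RPKM (SD, n = 6 each), with no overlap between neighbours. *Nrg2* was the most abundant neuregulin, at 1.0 ± 0.144 RPKM (SD, n = 6), below *Erbb4* in every control. *Nrg1* at 0.0847 ± 0.0388 RPKM and *Nrg3* at 0.0192 ± 0.0134 RPKM (SD, n = 6 each) were the lowest, and their ranges did not overlap. The position of *Nrg1* and *Nrg3* rests on few reads, since *Nrg1* had 16 to 48 counts and *Nrg3* 1 to 9 counts per control library.

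In mutants the order was the same but for the receptors at its top. *Erbb3* came first at 22.2 ± 5.36 RPKM and *Erbb2* second at 16.9 ± 0.333 RPKM (SD, n = 6 each), with no overlap between them. *Egfr* was at 7.44 ± 0.984, *Erbb4* at 1.76 ± 0.444 and *Nrg2* at 0.897 ± 0.135 RPKM (SD, n = 6 each). The ranges of *Erbb4* and *Nrg2* overlapped through mutant 1, in which *Erbb4* was at 0.871 RPKM. *Nrg1* at 0.263 ± 0.147 RPKM and *Nrg3* at 0.227 ± 0.19 RPKM (SD, n = 6 each) overlapped as well. Taken over the 4 receptors, *Erbb3* made up 33.7% ± 2.42 of the summed RPKM in controls and 45.4% ± 5.15 in mutants (SD, n = 6 each). With the length of the longest transcript in place of the merged exons, its shares were 32.4% ± 2.37 and 44.0% ± 5.15. Of the summed RPKM of the 3 neuregulins, *Nrg2* made up 90.9% ± 3.29 in controls and 67.6% ± 16.1 in mutants. The share of *Nrg1* was 7.39% ± 2.44 in controls and 17.8% ± 6.11 in mutants, and that of *Nrg3* was 1.67% ± 0.988 and 14.6% ± 10.5 (SD, n = 6 each). These shares depend on the length used. By the longest transcript, *Nrg2* made up 84.7% ± 5.1 in controls and 55.6% ± 18.5 in mutants, *Nrg1* 12.7% ± 3.89 and 26.1% ± 6.89, and *Nrg3* 2.54% ± 1.46 and 18.3% ± 12.4 (SD, n = 6 each).

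**Figure D1:**
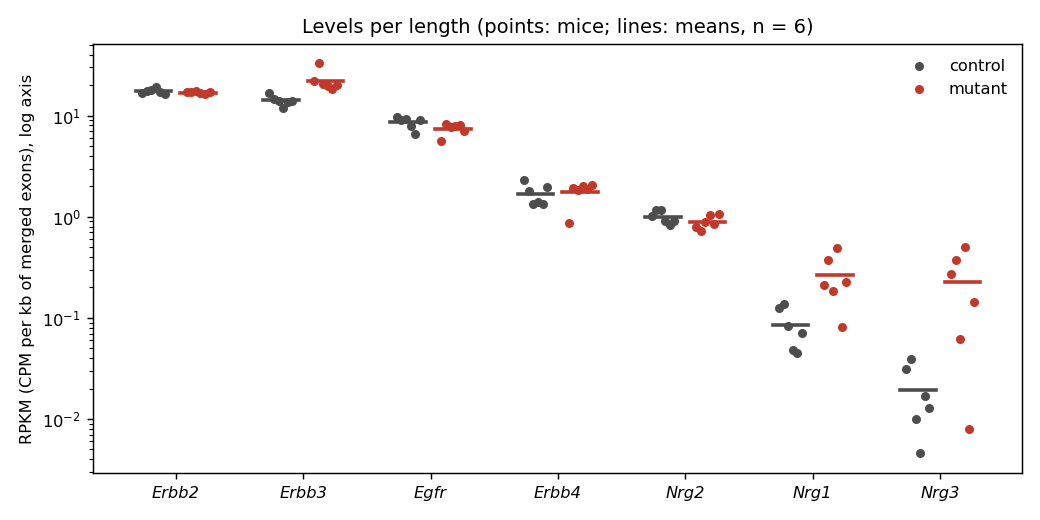
Level per length of the 7 genes in RPKM on a log axis, ordered by the control mean. Each point is a mouse and each line the mean of 6 mice; the receptors Erbb2, Erbb3 and Egfr lie above 5 RPKM in every mouse, and Nrg1 and Nrg3 lie below 1 RPKM in every mouse.

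None of the 7 genes passed the test across all genes. Mutants and controls were set against each other by edgeR's quasi-likelihood test on 18459 genes whose mean count was 5 or more, with Benjamini-Hochberg adjustment over all of them. All 7 members passed the count filter, *Nrg3* only through the mutants, since its mean count in controls was 4.17. At an adjusted p under 0.05, 35 of the 18459 genes were called, or 0.19%, and 0 of the 7 members. At an unadjusted p under 0.05, *Erbb3* and *Nrg1*, 2 of the 6 other members, were higher in mutants and 0 were lower, against 6.52% of all tested genes that were higher and 4.04% that were lower at this level. With DESeq2 on the same counts, *Erbb3* and *Nrg1* had an adjusted p under 0.05, where 3.37% of the tested genes were called and 2.57% were higher. *Nrg3* was also higher by both measures, but it is left out of these counts, since a gene that passes the filter through 1 genotype had to differ. The median log2 fold change was 0.003 over all tested genes. Single genes were tested a second way, by permutation of log2(CPM + 0.1) through all 924 divisions of the mice into 6 and 6 (exact, two-sided), in which no p can be below 0.00216.

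**Figure D2:**
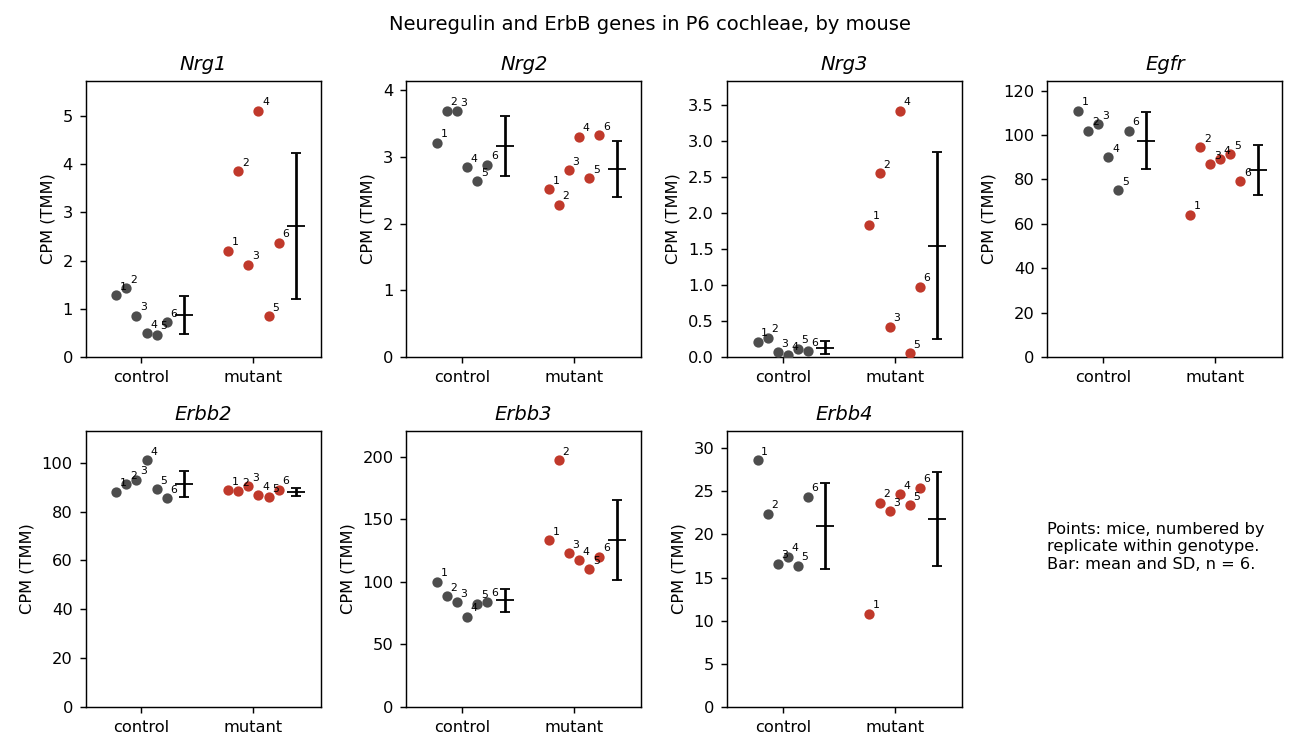
Level of each gene in CPM by mouse, with the replicate number beside each point and the mean and SD of 6 mice as a bar. Erbb3 is the gene whose 6 mutants, from 110 to 197 CPM, all lie above all 6 controls, from 72.0 to 100 CPM.

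Among the ligands, *Nrg1* was 3.1-fold and *Nrg3* 11.5-fold higher in mutants, whereas *Nrg2*, the most abundant of them, was nearly level. None of these differences passed the threshold over all genes. *Nrg1* (minus strand, chr8:31814551-32884029) makes the neuregulin that axons present to Schwann cells. From lowest through median to highest, it was at 0.463, 0.793 and 1.43 CPM in controls and at 0.848, 2.29 and 5.11 CPM in mutants. Mutant 4 was the highest and mutant 2 the next, 5 of 6 mutants lay above every control, and mutant 5 lay among the controls. The log2 fold change was 1.63 (standard error 0.40, 95% interval 0.78 to 2.49, edgeR unadjusted p = 0.00112, adjusted p = 0.0954). The exact permutation test gave p = 0.0108. Counts are per gene, so that the 18 annotated *Nrg1* transcripts, among them those for the membrane-bound and the secreted forms, were not separated.

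*Nrg3* (minus strand, chr14:38368952-39473088) makes a neuregulin of the nervous system that binds ErbB4. Its lowest, median and highest levels were 0.0312, 0.101 and 0.268 CPM in controls, from 25 counts in all 6 libraries. In mutants they were 0.0547, 1.41 and 3.42 CPM, from 311 counts. The mutants spread widely, with mutants 4, 2 and 1 at 3.42, 2.55 and 1.84 CPM and mutant 5, which had 2 counts, within the control range. The log2 fold change was 3.52 (standard error 0.78, 95% interval 1.84 to 5.21, edgeR unadjusted p = 0.000577, adjusted p = 0.0834), and the exact permutation test gave p = 0.0152. *Nrg3* passed the count filter only through the mutants, so these p-values describe the difference and lend it no support. The annotation places *Nrg3os* and 2 other antisense genes, *Gm20641* and *Gm20642*, over *Nrg3*, and it is not given whether reads were counted by strand, so that reads of both strands cannot be told apart.

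*Nrg2* (minus strand, chr18:36017652-36197380) makes a ligand of ErbB3 and ErbB4. Its lowest, median and highest levels were 2.63, 3.04 and 3.69 CPM in controls and 2.28, 2.74 and 3.32 CPM in mutants. The groups overlapped over most of their range, with mutants 1 and 2 below every control. Its log2 fold change was -0.16 (standard error 0.14, 95% interval -0.45 to 0.13, edgeR adjusted p = 0.796), and the exact permutation test gave p = 0.208. The interval allows a level between 0.73 and 1.09 times that of controls.

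Among the receptors, *Erbb3* was 1.57-fold higher in mutants and its groups did not overlap, and the 3 others were within 0.21 of 0 on the log2 scale. *Erbb3* (minus strand, chr10:128567523-128589652, 1 annotated transcript) makes the neuregulin receptor of Schwann cells and other neural crest derivatives. Its lowest, median and highest levels were 72.0, 83.8 and 100 CPM in controls and 110, 121 and 197 CPM in mutants. Mutant 2 stood far above the other mutants, which lay between 110 and 133 CPM. The log2 fold change was 0.65 (standard error 0.13, 95% interval 0.37 to 0.92), the 53rd smallest p of all tested genes (edgeR unadjusted p = 0.00018, adjusted p = 0.0615). The exact permutation test gave p = 0.00216, the smallest it can give. Groups that did not overlap, in this direction, were found for 0.618% of all tested genes.

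The adjusted p of *Erbb3* lay on either side of the threshold according to which mice were included. Without mutant 2 the log2 fold change was smaller, 0.50, and the edgeR adjusted p was 0.0263. Without mutant 5, the mutant with the lowest *Erbb3* level, it was 0.70 with an adjusted p of 0.0214. Over the 12 fits that each left out 1 mouse, it lay between 0.50 and 0.70 and the adjusted p between 0.0214 and 0.146. *Nrg1* and *Nrg3* crossed the threshold in 1 of these fits, that without mutant 5, with adjusted p-values of 0.0214 and 0.0114. For *Nrg3* this lends no support, since it passed the count filter only through the mutants.

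*Erbb2* (plus strand, chr11:98412470-98437716), the shared partner, was the steadiest of the 7 genes. In CPM it was at a lowest, median and highest of 85.5, 90.2 and 101 in controls and of 86.0, 88.6 and 90.4 in mutants, all within the control range. On the log2 scale the fold change was -0.05 (standard error 0.05, 95% interval -0.16 to 0.06, edgeR adjusted p = 0.843). The interval allows a level between 0.897 and 1.04 times that of controls. The exact permutation test gave p = 0.21.

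*Erbb4* (minus strand, chr1:68032186-69108059) makes the receptor for all the neuregulins measured here. Its lowest, median and highest levels were 16.4, 19.9 and 28.6 CPM in controls and 10.8, 23.5 and 25.4 CPM in mutants. Mutant 1 lay below every control, and the other 5 mutants, between 22.7 and 25.4 CPM, lay inside the control range. The log2 fold change was 0.06 (standard error 0.20, 95% interval -0.37 to 0.48, edgeR adjusted p = 0.969), and the exact permutation test gave p = 0.929. Without mutant 1 it was 0.19, the highest value over the 12 fits that left out 1 mouse. Mutant 1 is also the library with low counts on long genes, and *Erbb4* has 12.355 kb of merged exons. The part of this tilt in the *Erbb4* level was not tested.

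*Egfr* (plus strand, chr11:16752203-16918158, 11.326 kb of merged exons) makes the receptor for EGF. Control levels had a lowest, median and highest value of 75.2, 102 and 111 CPM, and mutant levels of 64.1, 88.0 and 94.6 CPM. All 6 mutants lay below the control median, with mutant 1 the lowest, and the ranges overlapped. Its log2 fold change was -0.21 (standard error 0.10, 95% interval -0.43 to 0.01, edgeR unadjusted p = 0.0626, adjusted p = 0.512). The exact permutation test gave p = 0.108. Leaving out 1 mouse at a time moved it between -0.27 and -0.14. The unadjusted edgeR p was 0.0452 with upper-quartile scaling, 0.0347 with no filter, 0.0111 without control 5 and 0.0404 without mutant 2, and no adjusted p in these fits was below 0.279. The antisense gene *Egfros* overlaps *Egfr*, and reads of both strands cannot be told apart here either.

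Ratios of counts within a library need no scaling between libraries, and 5 were compared by exact two-sided permutation tests. The ratio of *Erbb3* to *Erbb2*, the receptors that act together in Schwann cells, lay between 0.715 and 1.14 in controls and between 1.28 and 2.23 in mutants, with no overlap. The mean log2 ratio was 0.67 higher in mutants (p = 0.00216, the smallest the exact test can give). *Erbb4* to *Erbb2* differed by 0.08 (exact p = 0.771) and *Egfr* to *Erbb2* by -0.16 (exact p = 0.236) on the log2 scale, within the spread of the mice. The ratio of *Nrg2* to *Nrg1* had a median of 4.06 in controls, from 2.48 to 5.55, and of 1.27 in mutants, from 0.592 to 3.13. The mean log2 ratio was 1.7 lower in mutants (exact p = 0.00649), and mutant 5 alone lay in the control range. The ratio of *Nrg3* to *Nrg1* had medians of 0.158 and 0.539, with mutant 3 inside the control range and mutant 5 below it (log2 difference 1.32, exact p = 0.0519). This p lends the difference no support, since *Nrg3* passed the count filter only through the mutants.

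The 3 genes that were higher in mutants at an unadjusted p under 0.05 varied from mouse to mouse with markers of nerve. *Nrg3* is 1 of them, although it passed the count filter only through the mutants. Of 17 Schwann cell markers, 17 were higher in mutants at an unadjusted p under 0.05, 0 of them at an adjusted p under 0.05, with a median log2 fold change of 1.79. Their summed level ran from 302 to 1220 CPM in controls and from 938 to 5160 CPM in mutants. *Pmp2*, a myelin protein gene near 0 in these libraries, had no count in control 4. With means of 0.0567 CPM in controls and 0.283 CPM in mutants, *Pmp2* passed the count filter only through the mutants. Its place among the 17 therefore lends no support. Of 16 neuron markers, 13 were higher at an unadjusted p under 0.05 and 1 at an adjusted p under 0.05, with a median of 2.03. Their summed level ran from 185 to 337 CPM in controls and from 242 to 1450 CPM in mutants. Beside both lists, 6.52% of all tested genes were higher at the unadjusted level and 0.108% at the adjusted level. Of the markers of other cell types, 0 of 16 for hair cells differed at an unadjusted p under 0.05. Supporting cells had 5 of 13 lower and macrophages 5 of 12 lower, and mesenchyme (8 markers) and vessels (6 markers) had 1 lower each, beside 4.04% of all tested genes that were lower at this level. Among the 5 supporting cell markers was *Sox2* itself (log2 fold change -0.45, edgeR unadjusted p = 0.00406). CreER replaced 1 *Sox2* allele in mutants, so its level is no measure of supporting cell content here.

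Each library was given a mean log2 CPM over the Schwann cell markers and one over the neuron markers, and the deviations of each member from its genotype mean were set against those of the marker means. With 7 genes and 2 marker means, 14 relations were computed over the 12 mice. *Erbb3* followed the Schwann cell markers, with Pearson's r of 0.79 (permutation p = 0.0009, adjusted 0.0042) and Spearman's rho of 0.89 (permutation p = 0.00018, adjusted 0.00126). Without the 2 mice farthest from the median marker level, r was 0.77. *Nrg3* followed the neuron markers, with r of 0.92 (permutation p = 6e-05, adjusted 0.00084), rho of 0.90 (permutation p = 0.00017, adjusted 0.00126) and r of 0.90 without the 2 farthest mice. *Nrg1* did so with r of 0.89 (permutation p = 0.00022, adjusted 0.00154), rho of 0.82 (permutation p = 0.0019, adjusted 0.00887) and r of 0.76. The other 11 relations had adjusted p-values of 0.112 or more. These values do not separate the markers from each other, since without the 2 farthest mice *Nrg3* had r of 0.89 with the Schwann cell markers (0.50 over all mice), *Nrg1* 0.69 (0.37) and *Erbb3* 0.71 with the neuron markers (0.41). Deviations were taken within each genotype, so the genotype difference itself does not enter these values. The permutations moved the deviations across all 12 mice and not within genotype. The SD of the neuron marker mean was 0.59 in controls and 1.1 in mutants, and that of the Schwann cell marker mean 0.72 and 0.82. The permutation p-values are therefore approximate and may be too small. The share of all genes that follow these marker means as closely was not tested. All genes share the same libraries, so the permutation p-values do not show that these relations are particular to the members. Those of *Nrg3* lend no support, since it passed the count filter only through the mutants.

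**Figure D3:**
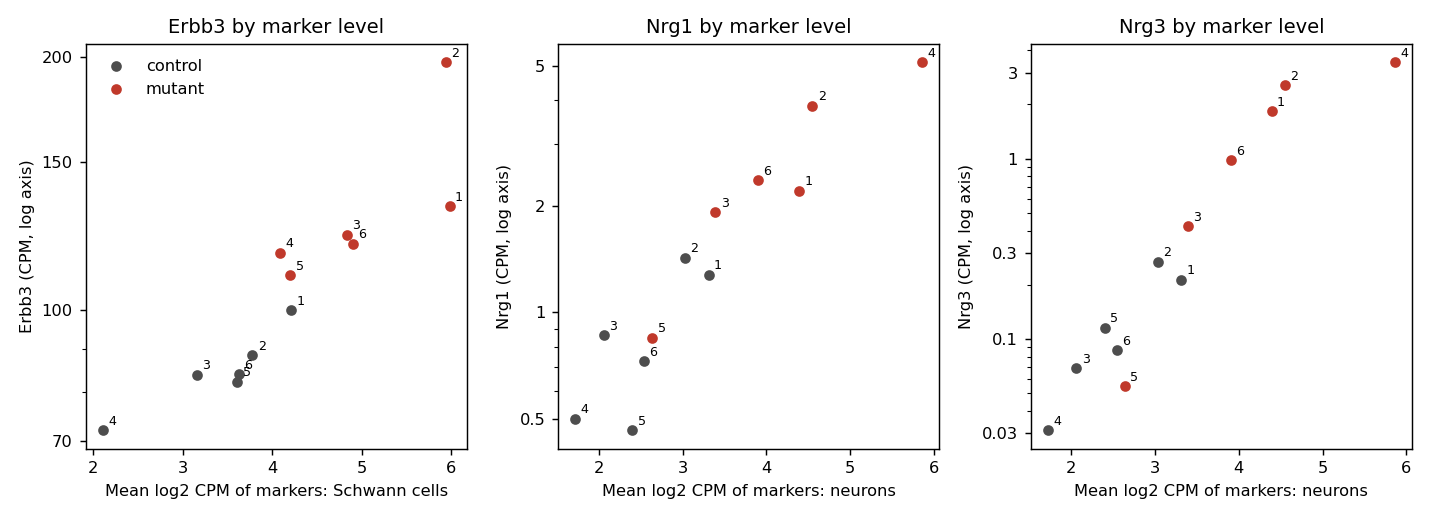
Level in CPM (log axis) of Erbb3 against the mean log2 CPM of 17 Schwann cell markers, and of Nrg1 and Nrg3 against that of 16 neuron markers, 1 numbered point per mouse. Mutants 4 and 5 have Schwann cell marker means of 4.09 and 4.20, just below that of control 1 at 4.21, and Erbb3 levels of 117 and 110 CPM, above that control at 100 CPM; mutant 5 lies among the controls for Nrg1 and Nrg3.

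A few mutants were near the controls in 1 marker mean, and the levels of the 3 genes in them are given here. Only mutant 5 lay in the control range for both means. Mutant 4 had the highest neuron marker mean of all libraries, 5.86. Mutant 3 had a Schwann cell marker mean of 4.83, above every control. Mutants 3 and 4 therefore do not separate marker level from genotype, and mutant 5 is only 1 mouse. Mutants 4 and 5, with Schwann cell marker means of 4.09 and 4.20, had 117 and 110 CPM of *Erbb3*, and control 1, with 4.21, had 100 CPM. Mutant 5, whose neuron marker mean of 2.64 lay inside the control range of 1.72 to 3.31, had *Nrg1* at 0.848 CPM and *Nrg3* at 0.0547 CPM, both within the control range. Mutant 3, with a neuron marker mean of 3.39 beside the 3.31 of control 1, had *Nrg1* at 1.92 CPM and *Nrg3* at 0.424 CPM, above the highest control values of 1.43 and 0.268 CPM. With the Schwann cell marker mean as a covariate in edgeR, the log2 fold change of *Erbb3* was 0.23 (unadjusted p = 0.0945). With the neuron marker mean it was 0.44 (unadjusted p = 0.0203), and with both it was 0.19 (unadjusted p = 0.206). For *Nrg1* the neuron covariate gave 0.28 (unadjusted p = 0.358) and the Schwann cell covariate 1.32 (unadjusted p = 0.0329). For *Nrg3* they gave 0.73 (unadjusted p = 0.221) and 2.96 (unadjusted p = 0.0124), and both together gave -0.29 (unadjusted p = 0.855). These *Nrg3* p-values lend no support, since the gene passed the count filter only through the mutants.

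Both marker means were higher in mutants, so that marker level and genotype are not separate terms in these fits. Without mutants 1 and 2, which had the most Schwann cell marker signal, the log2 fold change of *Erbb3* in edgeR was 0.46, with an adjusted p of 0.0313. Mutant 2 also had the highest *Erbb3* level, and the standard error was 0.08 in this fit against 0.13 with all mice. The mutants left had Schwann cell marker means from 4.09 to 4.9, and the controls from 2.11 to 4.21. The groups were therefore not matched in these markers. Without mutants 1, 2 and 4, which had the most neuron marker signal, *Nrg1* was at 0.97 (unadjusted p = 0.028, adjusted p = 0.625) and *Nrg3* at 1.85 (unadjusted p = 0.0205, adjusted p = 0.601) in edgeR. As *Nrg3* passed the count filter only through the mutants, its p-values lend no support. In the same fit *Erbb3* was at 0.47 (unadjusted p = 0.000144, adjusted p = 0.0618). The mutants left in it, 3, 5 and 6, had neuron marker means of 3.39, 2.64 and 3.9, and the controls from 1.72 to 3.31. These groups were therefore not matched in the neuron markers either. Both exclusions were chosen after the data were examined. The part of nerve content and of dissection in these differences was not tested.

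**Figure D4:**
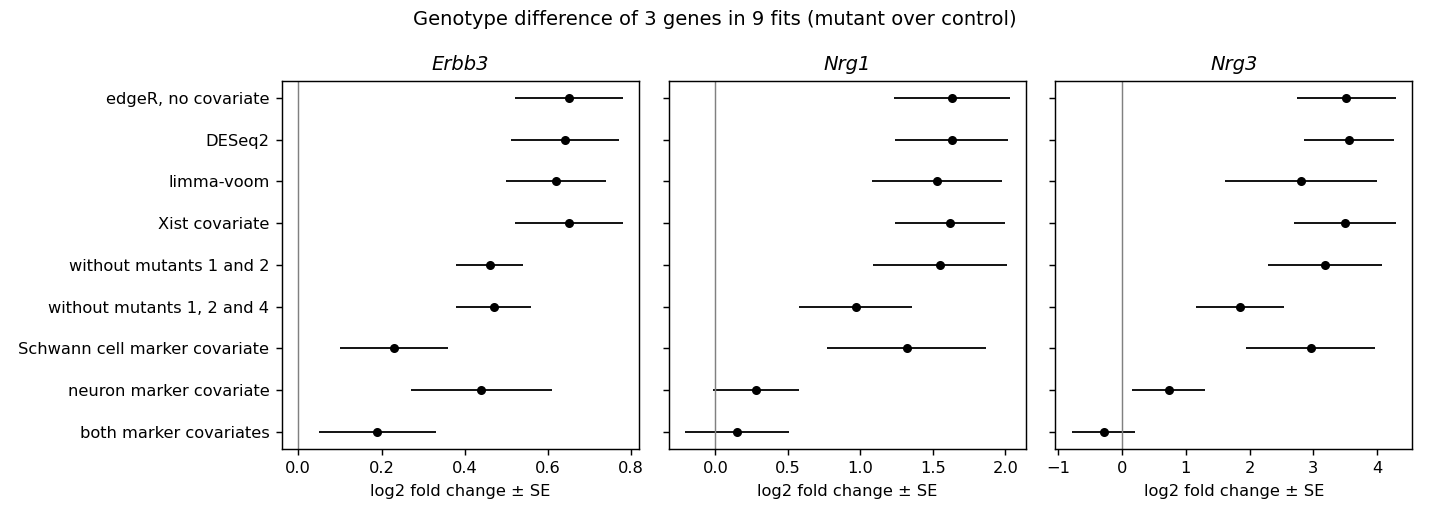
Log2 fold change, mutant over control, of Erbb3, Nrg1 and Nrg3 in 9 fits, with the standard error as a bar and 0 as a line. Erbb3 lies between 0.19 and 0.65, Nrg1 between 0.15 and 1.63, and Nrg3 between -0.29 and 3.56; the lowest value of each is from the fit with both marker covariates.

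Few of the remaining genes of the pathway differed at an unadjusted p under 0.05, apart from a list of Schwann cell genes. Of 8 other EGF-family ligands, *Areg*, *Ereg* and *Epgn* fell under the count filter, and 1 of the 5 tested, *Tgfa*, differed at an unadjusted p under 0.05. *Tgfa*, which encodes a ligand of EGFR, was at 60.2 ± 3.7 CPM (SD, n = 6) in controls against 54.0 ± 4.28 CPM (SD, n = 6) in mutants (log2 fold change -0.16, edgeR unadjusted p = 0.0284, adjusted p = 0.376). The median over the 5 ligands was 0.08. The 5 proteases that shed or trim neuregulins, *Adam10*, *Adam17*, *Adam19*, *Bace1* and *Nrd1*, had fold changes between -0.08 and 0.06 on the log2 scale, the smallest p being that of *Adam17* (0.183, unadjusted). BACE1 is the protease that readies NRG1 for its role in myelination, and its gene was at 127 ± 9.3 CPM (SD, n = 6) in controls against 120 ± 14.8 CPM (SD, n = 6) in mutants.

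Downstream of the receptors, 2 of 24 adaptors and effectors differed at an unadjusted p under 0.05, near the 10.6% of all tested genes. *Shc1*, an adaptor, had a log2 fold change of -0.16 (edgeR unadjusted p = 0.0177, adjusted p = 0.301). The PI3K genes were near level, with *Pik3r1*, which encodes p85, at 343 ± 35.5 CPM (SD, n = 6) in controls against 341 ± 59.6 CPM (SD, n = 6) in mutants. None of the 9 ErbB inhibitors differed at this level, and the smallest unadjusted p was 0.0905, for *Errfi1*, a feedback inhibitor of the kinases (log2 fold change -0.12). Of 16 genes that respond to ERK, the kinase at the end of the Ras cascade, *Ccnd1*, which encodes cyclin D1, was lower (log2 fold change -0.26, unadjusted p = 0.0378, adjusted p = 0.422). The medians of these lists were -0.01, -0.03 and -0.04, beside 0.003 over all tested genes.

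Of 8 Schwann cell genes described as acting downstream of neuregulin, 6 were higher in mutants at an unadjusted p under 0.05 and 0 at an adjusted p under 0.05, with a median log2 fold change of 1.6. Of all tested genes, 6.52% were higher at the unadjusted level. *Pou3f1* and *Pou3f2* encode transcription factors of the promyelinating stage. *Pou3f1* had 2.48 ± 1.21 CPM (SD, n = 6) in controls against 14.9 ± 11.6 CPM (SD, n = 6) in mutants (log2 fold change 2.59, edgeR adjusted p = 0.0834). *Pou3f2* was at 3.06 ± 1.6 and 10.0 ± 5.0 CPM (log2 fold change 1.71, adjusted p = 0.0843). For both, the 6 mutants lay above the 6 controls, as they did for 0.618% of all tested genes. *Egr2*, which encodes the factor that starts myelination, was higher by 1.79 (adjusted p = 0.133), and its target *Pmp22*, which encodes a myelin protein, by 1.49 (adjusted p = 0.113) on the log2 scale.

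The 2 genes with larger p-values were near level between the genotypes. *Sox10*, which Schwann cells carry at every stage and which other cochlear cells also express, was at 177 ± 10.6 CPM (SD, n = 6) in controls against 184 ± 16.8 CPM (SD, n = 6) in mutants (log2 fold change 0.05, edgeR adjusted p = 0.884). For *Nab2*, which encodes a partner of EGR2, the log2 fold change was -0.01 (adjusted p = 0.984). Some of these genes, such as *Egr2*, are also among the Schwann cell markers, so this list and the marker mean are not independent. With the Schwann cell marker mean as a covariate, 1 of the 8 genes had an unadjusted p under 0.05, and with both covariates 0 had.

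**Figure D5:**
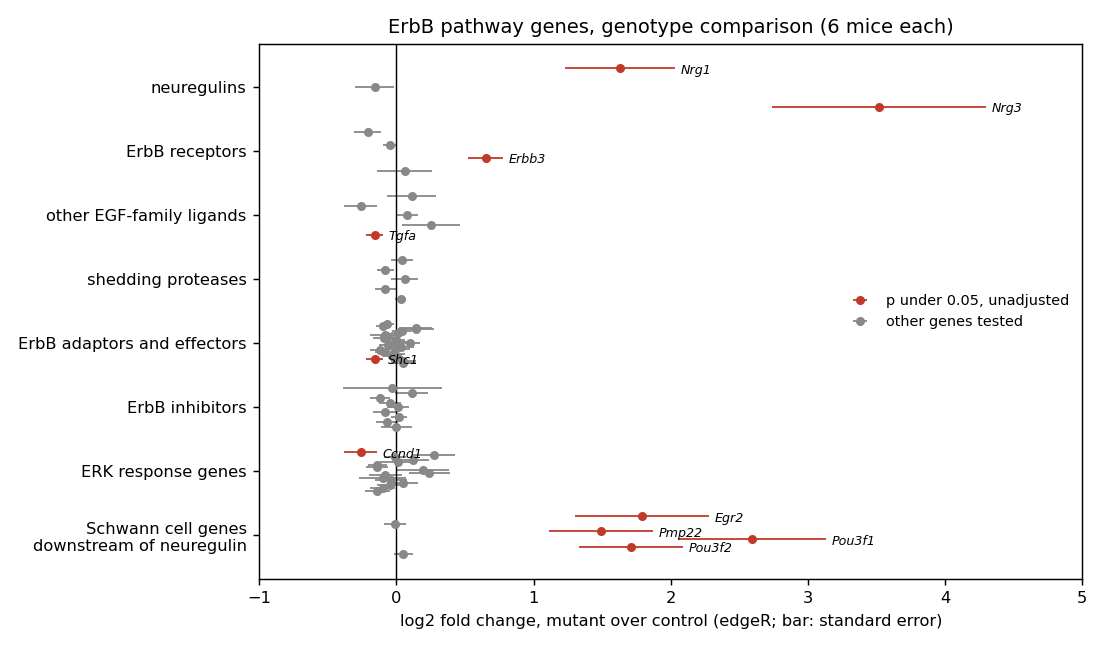
Log2 fold change, mutant over control, with its standard error for the 7 members and 6 lists of pathway genes, 1 point per gene; red and a name mark an unadjusted p under 0.05. Apart from Nrg1, Nrg3 and Erbb3, the named genes beyond 1 are the Schwann cell genes Pou3f1, Egr2, Pou3f2 and Pmp22, and the genes shown from the other lists lie between -0.26 and 0.27. A few genes are not shown.

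The genes whose mouse-to-mouse pattern was most like that of a member were found among 14823 other genes with a mean of at least 1 CPM (14824 for *Nrg3*, itself below this level). Likeness was Pearson's correlation over the 12 mice of log2 CPM deviations from the genotype mean, given as a description with no p, since all genes share the same libraries. Nearest to *Erbb3* were *Ick* (r = 0.959), *Adamts20*, *Plekha1*, *Arhgap24* and *Magi2* (r = 0.93). Nearest to *Nrg1* were *Necab1* (r = 0.954), *Cadps*, *Map1a*, *Soga3* and *Erc2* (r = 0.936). Nearest to *Nrg3* were *Scn1a* (r = 0.976), *Ank1*, *Tmem151a*, *Atcay* and the neuron marker *Elavl3* (r = 0.968).

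The 4 other members had other neighbours. Nearest to *Erbb4* were *Sp1* (r = 0.99), *Arhgap5*, *Flrt2*, *Ddx6* and *Amot* (r = 0.978), and nearest to *Egfr* were *Gpatch2l* (r = 0.971), *Lrp6*, *Cttnbp2nl*, *Musk* and *Ptar1* (r = 0.954). For *Erbb2* they were *Vstm4* (r = 0.928), *Rbmxl1*, *Tmem204*, *Nell2* and *Chil1* (r = 0.895), and for *Nrg2* they were *Utp14b* (r = 0.946), *Tnfsf10*, *Ap5b1* and *Ildr2* (r = 0.842). Among the members themselves, *Nrg1* and *Nrg3* varied together (r = 0.88), as did *Egfr* and *Erbb4* (r = 0.78), both of which were lowest among mutants in mutant 1. For *Erbb3* and its partner *Erbb2* the value was -0.23.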

How the data were processed

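RNA-seq was analysed for 6 mutant and 6 control libraries, grouped by the genotype labels. The authors deposited raw counts of single-end reads per gene symbol, 1 column per library, with no normalization or pooling. The submitters' processing notes name Trimmomatic 0.32, STAR 2.4.2a, HTSeq 0.9.1, DESeq2 1.10.1 and the build GRCm38.p4. The strand setting of the counting and the annotation are not given in the sources used here. A deposited table of the authors' own DESeq2 comparison, which holds fold changes and p-values, was not used.

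Genes whose mean count was 5 or more were tested in R 4.3.3 with edgeR 4.0.16 (TMM, robust quasi-likelihood F-test, no covariates), adjusted by Benjamini-Hochberg over all 18459 genes. The standard error is the log2 fold change divided by the square root of F. DESeq2 1.42.0 and limma 3.58.1 (voom) were alternatives, beside other scalings, filters, covariates, the replicate number as a block and leaving out mice. Marker means used log2 CPM with a prior count of 2, and relations were tested with 100000 permutations across all 12 mice. Ratios had 0.5 added to each count. *Nrg1* and *Nrg3* had the fewest counts of the members, 16 to 48 and 1 to 9 per control library. The edgeR and DESeq2 tests were also run on simulated counts, with the outcome not reported here. Each library is a separate mouse by the labels and the study's n of 6 per genotype.

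The members, the pathway lists (other EGF-family ligands, shedding proteases, adaptors and effectors, inhibitors, ERK response genes, Schwann cell genes downstream of neuregulin) and the marker lists (Schwann cells, neurons, hair cells, supporting cells, macrophages, mesenchyme, vessels) were chosen with earlier results of these data known. Named from each pathway list were the genes with an unadjusted p under 0.05 and the gene with the smallest p, and for each member the 5 genes most like it. A few genes that this rule names are counted but not reported here. *Bace1*, *Pik3r1*, *Sox10*, *Nab2* and *Pmp2* were named after their values were seen. Gene positions, lengths and sequences come from GENCODE M21 on GRCm38, and 95.0% of the tested genes were matched to it.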

Additional observations from a re-analysis of the deposited data

Results flagged for a closer look

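Each of the 7 genes and 5 ratios was examined in each genotype for a mouse far from the other 5, by Dixon's test at the 95% level. Chance marks about 5% of such groups, and 5 of 24 were marked, several of which share a mouse and a gene.

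*Erbb3* in mutant 2 was at 197 CPM, with the other mutants between 110 and 133 CPM, and the ratio of *Erbb3* to *Erbb2* in this mouse was 2.23, with the others between 1.28 and 1.49. Mutant 2 had a Schwann cell marker mean of 5.94, the highest but for mutant 1 at 5.98, in which *Erbb3* was at 133 CPM.

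*Erbb4* in mutant 1 was at 10.8 CPM, with the other mutants between 22.7 and 25.4 CPM, and the ratio of *Erbb4* to *Erbb2* was 0.121, with the others between 0.251 and 0.286. In this library, genes with at least 8 kb of merged exons lay 0.51 lower on the log2 scale than genes under 2 kb, relative to the genotype mean (difference -0.51), and this difference was between -0.23 and 0.27 in the other 11 libraries. The part of transcript length in the *Erbb4* value was not tested.

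The ratio of *Nrg2* to *Nrg1* in mutant 5 was 3.13, with the other mutants between 0.592 and 1.45 and the controls between 2.48 and 5.55. Mutant 5 also had the lowest neuron marker mean of the mutants, 2.64.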

How the results depend on the processing

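The number of genes called at an adjusted p under 0.05 was 35, and other models gave other numbers. DESeq2 called 619 (473 higher in mutants), and there were 19 with limma-voom, 57 with no filter, 131 with the replicate block and 23 with the level of *Xist*, a marker of sex, as a covariate. With the marker covariates it was 0 (Schwann cells, 850 at an unadjusted p under 0.05), 2 (neurons) and 1 (both). It lay between 14 and 357 when 1 mouse was left out, the highest being without mutant 5.

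*Erbb3*, at a log2 fold change of 0.65 in the main fit (adjusted p = 0.0615), passed with DESeq2 (0.64, adjusted p = 0.000483). It also passed with no filter (0.64, adjusted p = 0.0485) and with the replicate block (0.62, adjusted p = 0.0297). So it did without mutants 1 and 2 (0.46, adjusted p = 0.0313), an exclusion chosen after the data were examined. It did not pass with limma-voom (0.62, adjusted p = 0.082). Its edgeR adjusted p was 0.0643 with RLE scaling, 0.0504 with upper-quartile scaling and 0.0825 with *Xist*. It did not pass with any marker covariate, and it passed in 2 of the 12 fits that left out 1 mouse. *Nrg1* (1.63, adjusted p = 0.00347) and *Nrg3* (3.56, adjusted p = 0.000216) passed with DESeq2, and *Nrg3* with the block (3.27, adjusted p = 0.0481). *Nrg1* did not pass with the block (1.54, adjusted p = 0.0667). Neither gene passed with limma-voom (adjusted p = 0.226 for *Nrg1* and 0.453 for *Nrg3*) or with no filter (edgeR adjusted p = 0.162 for both). The p-values of *Nrg3* lend no support, since it passed the count filter only through the mutants. Left-out mice moved *Erbb3* between 0.50 and 0.70, *Nrg1* between 1.35 and 1.83, *Nrg3* between 3.12 and 3.87 and *Erbb4* between -0.01 and 0.19, and the log2 ratio of *Nrg3* to *Nrg1* between 1.08 and 1.76 (exact permutation p from 0.00649 to 0.104).

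Signs turned for *Erbb2* (0.01 with the Schwann cell covariate, 0.02 with both), *Erbb4* (-0.08 with the neuron covariate, -0.03 with both, -0.01 without control 5 and just below 0 without control 3) and *Nrg3* (-0.29 with both). The cause was not tested. The replicate numbers do not pair the mice by the labels, and same-numbered mice had correlations of their deviations between -0.187 and 0.272, with 3 of 6 over 0.1 and 2 of 6 controls closest to their own number. The order of levels per length was the same with the longest transcript, which put *Nrg1* at 0.162 and *Nrg3* at 0.0326 RPKM in controls. *Nrg3* had 1 to 9 counts per control.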
